A study of Mus musculus with 20 samples.

Results

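The 10 genes described here are direct transcriptional targets of p53, chosen by name: Cdkn1a, Ccng1 and Mdm2, which act in arrest and feedback, Bbc3, Pmaip1, Trp53inp1 and Phlda3, which act in cell death, Sesn1 and Sesn2, which restrain growth signalling, and the secreted factor Gdf15. They are 10 of the 56748 genes in each of the tables, and all 10 passed the minimum of 10 counts in both experiments, among 18691 genes tested in the first and 19569 in the second. Transcripts were counted by RNA-seq in 20 libraries. The first experiment had 12 libraries that the labels name bone marrow-derived macrophages (BMDM), wildtype (WT) or lacking inducible nitric oxide synthase (iNOS KO), either untreated or given LPS at 50 ng/mL together with IFNγ at 30 ng/mL for 48 h, in 3 replicates (A, B and C) of each of 4 groups. By the labels these cells came from C57BL/6J mice of either sex aged 6 to 12 weeks and were kept in 20 ng/mL M-CSF, whereas the study's methods place the iNOS KO RNA-seq in RAW264.7 cells, so the cells are called BMDM-labelled below. The second experiment had 8 libraries of RAW264.7, a mouse macrophage line, WT or Akr1a1 KO, either untreated or given LPS at 50 ng/mL together with IFNγ at 10 ng/mL for 48 h, in 2 replicates (A and B) of each of 4 groups. The stimulants were washed off before RNA was taken.

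If the BMDM-labelled cells came from mice, the iNOS KO mice (B6.129P2-Nos2tm1Lau/J) carry a constitutive null allele that is not limited to macrophages. The methods describe marrow pooled by genotype, so replicates of BMDM may then not be separate animals. If they were RAW264.7 cells, as the methods state for this RNA-seq, the iNOS KO was a cell line and these limits do not apply. The methods refer to earlier work for how that line was made. They do not say whether its replicates are separate clones. The Akr1a1 KO cells were expanded from single cells after CRISPR editing. The methods describe the replicates of every group in the Akr1a1 KO experiment, WT included, as independent clones. A stimulated and an unstimulated library of the same letter may thus be the same clone, and the tests did not pair them. The p-values therefore measure the spread between these libraries, which may be partly technical or clonal. In RNA from bulk cultures, fewer cells expressing a gene and less of its RNA per cell cannot be told apart.

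The transcription factor p53, encoded by Trp53, is stabilized by DNA damage, oncogene activity and other stress, and binds paired decamers (half-sites) near its target genes. Cdkn1a encodes p21, the inhibitor of cyclin-dependent kinases through which p53 arrests the cell cycle, and Mdm2 encodes the ubiquitin ligase that returns p53 to a low level. Several of these genes also have inputs that do not need p53, such as ATF4 at Sesn2 and Gdf15 and FOXO factors at Sesn1 and Bbc3. In macrophages, LPS and IFNγ can stop proliferation and induce iNOS, whose product nitric oxide (NO) is reactive. The comparisons below ask whether the p53 targets moved with stimulation, and whether they did so alike where iNOS was absent.

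Promoter sequence was available for 8 of the 10 genes, in 13 windows from 250 bases before to 50 bases after an annotated start (RefSeq, GRCm38.p6). Both strands were searched for the p53 half-site, and 4 of the 13 windows held a match, against 8.36% of all 32851 windows of this length. The 4 pieces with a match are shown because they belong to the arrest, feedback and sestrin genes whose levels are given below, and capitals mark the half-site matches. They lie at chr17:29090866-29090977 (plus strand) for Cdkn1a, chr10:117710895-117710984 (minus strand) for Mdm2, chr11:40755422-40755511 (minus strand) for Ccng1 and chr10:41887226-41887315 (plus strand) for Sesn1, whose piece belongs to its second listed start.
Cdkn1a: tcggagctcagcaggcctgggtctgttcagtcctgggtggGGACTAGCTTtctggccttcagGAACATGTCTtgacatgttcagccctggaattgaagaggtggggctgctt
Mdm2: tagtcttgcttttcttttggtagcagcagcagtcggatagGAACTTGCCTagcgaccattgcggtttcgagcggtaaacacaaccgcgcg
Ccng1: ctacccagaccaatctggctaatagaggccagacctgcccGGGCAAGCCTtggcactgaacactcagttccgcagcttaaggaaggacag
Sesn1: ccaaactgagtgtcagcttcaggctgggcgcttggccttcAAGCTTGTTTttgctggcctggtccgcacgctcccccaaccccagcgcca

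The Cdkn1a piece held 2 half-site matches separated by 12 bases, ending 42 bases before its first listed start, and the others held 1 match each. The window of the second listed start of Cdkn1a held 0 matches. None of the 13 windows held the interferon-activated GAS motif TTCNNNGAA (8.30% of all windows), the ATF4 motif TGATGNAA (3.97%) or the TATA box TATAAA (13.6%). These matches describe letters in a short window and do not show binding.

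The libraries held 15072109 to 18878107 counts in the BMDM-labelled cells and 11876719 to 44583327 in RAW264.7 cells. Levels are given as CPM, counts scaled to a common library size after TMM normalization. The iNOS transcript Nos2 was at 1.25 to 1.53 CPM in unstimulated WT and 10370 to 11530 CPM in stimulated WT libraries, and at 0 counts in unstimulated and 870.5 to 912 CPM in stimulated iNOS KO libraries. Gene counts include exons outside a deleted or edited part, so a transcript in KO cells is no measure of protein. Akr1a1 was lower in each KO than in each WT RAW264.7 library but did not pass the test (log2 fold change -1.10, adjusted p = 0.643 in stimulated cells, edgeR). One BMDM-labelled library, iNOS KO stimulated replicate B, stood apart from its replicates, with a chi-square per degree of freedom of 28.8 and 36.8 against 6.61 between A and C. The results below that rest on this library are also given without it. Between the replicates of RAW264.7 groups the same measure ran from 15.5 in unstimulated Akr1a1 KO to 68.6 in stimulated WT. The titles of unstimulated replicate B of both RAW264.7 genotypes call them stimulated while their treatment field calls them unstimulated, and they were taken as unstimulated. Nos2 was at 30.7 and 38.1 CPM in these libraries and at 4155 to 8806 CPM in stimulated RAW264.7 libraries.

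All 7 macrophage markers were detected in every BMDM-labelled group. They summed to 6720 to 7110 CPM in unstimulated WT and 4550 to 4810 CPM in unstimulated iNOS KO libraries. With stimulation the sums were 6200 to 6950 CPM in WT and 9490 to 9890 CPM in iNOS KO libraries. In unstimulated RAW264.7 libraries they summed to 3790 to 4320 CPM in WT and 2760 to 3010 CPM in Akr1a1 KO, with Mertk at 0 in both unstimulated KO libraries. In stimulated RAW264.7 libraries the sums were 8680 to 9530 CPM in WT and 2990 to 6580 CPM in Akr1a1 KO. The macrophage sums thus did not overlap between genotypes in either state of either experiment. The sum of 6 neutrophil markers went from 0.433 to 1.17 CPM in unstimulated to 35.5 to 62.1 CPM in stimulated BMDM-labelled libraries, with Ly6g and S100a9 at 0 in the latter, and from 0.218 to 0.623 CPM to 121 to 420 CPM in RAW264.7 libraries. The sum of 7 fibroblast markers reached 5.13 CPM in stimulated WT and 17.1 CPM in stimulated iNOS KO libraries with Col3a1 at 0, and 3.87 CPM in RAW264.7 libraries, and 7 lymphocyte markers summed to at most 0.693 CPM. Markers moved with stimulation, and the macrophage sum also differed with genotype, as the genes below did. Their part in the results was not tested.

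In WT BMDM-labelled cells stimulation raised 7 of the 10 p53 targets and lowered 2, the exception being Gdf15. Over all genes tested, 32.4% rose and 28.5% fell. The members' median log2 fold change was 0.94, against 0.07 over all genes. In iNOS KO cells 5 of the 10 rose and 2 fell, beside 27.3% and 24.6% of all genes, with a median of 0.64 (-0.000322 over all genes). Those that rose in both genotypes were Cdkn1a, Mdm2, Pmaip1 and Sesn2, while Sesn1 fell in both, and Bbc3 and Phlda3 moved in opposite directions in the 2 genotypes. A gene passed where its adjusted p was under 0.05 by the quasi-likelihood F test of edgeR, with p-values adjusted over all genes by Benjamini and Hochberg's method, and every adjusted p below comes from it unless another test is named.

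Between stimulated cells, 7 of the 10 were lower in iNOS KO than in WT, Bbc3 was higher, and Sesn1 and Gdf15 did not pass. Of all genes, 24.2% were higher and 24.2% lower. With an absolute log2 fold change over 1 also required, Bbc3 was higher and 3 members (Pmaip1, Trp53inp1 and Phlda3) were lower, against 10.7% and 8.87% of all genes. The response to stimulation itself differed between genotypes for 7 members, by the interaction of genotype and stimulation: it was more positive in iNOS KO cells for Bbc3 and more negative for 6, beside 20.0% and 15.4% of all genes. The members' median was -0.46 between stimulated cells (-0.04 over all genes) and -0.66 for the interaction (-0.02 over all genes). These comparisons share libraries, so their counts are not independent of each other. Without iNOS KO stimulated replicate B, 8 members passed between stimulated cells and 7 for the interaction, in the same directions.

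**Figure D1:**
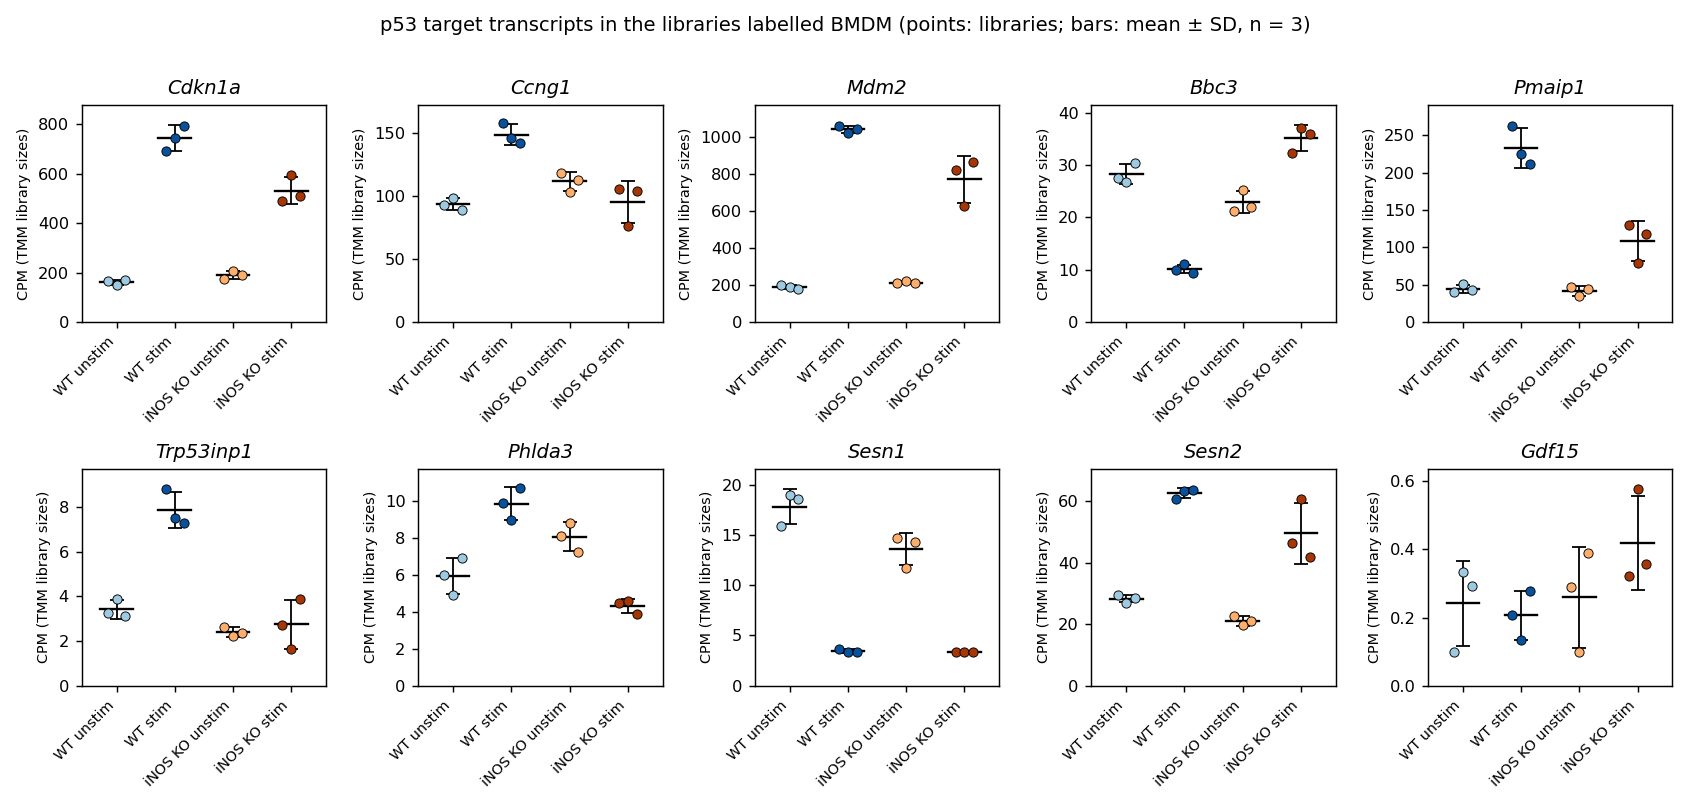
Level of each of the 10 p53 targets in the 12 BMDM-labelled libraries, in CPM on linear axes from 0, with 1 point per library and bars for the mean ± SD (n = 3). Stimulated WT libraries stand highest for Cdkn1a, Mdm2 and Pmaip1 and lowest for Bbc3, which was at 9.43 to 11.01 CPM there and at 32.3 to 37.1 CPM in stimulated iNOS KO libraries.

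Scaling bears on these counts. With library totals in place of TMM, the median of all genes shifted by -0.46 (log2) for stimulation of WT and by -0.42 for stimulation of iNOS KO cells, and the share of higher among all calls went from 53.2% to 33.9% and from 52.6% to 28.2%. No p53 target that passed changed direction, but Ccng1 (0.21, adjusted p = 0.109) and Phlda3 (0.27, adjusted p = 0.102) no longer passed in WT cells. All 7 interactions still passed under this scaling.

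Cdkn1a, whose product p21 halts the cell cycle, was at 165, 149 and 168 CPM in the unstimulated WT libraries and at 689, 745 and 793 CPM in the stimulated ones. In iNOS KO libraries it was at 174, 206 and 192 CPM before and 489, 593 and 511 CPM after stimulation. Every stimulated library lay above every unstimulated one, and every stimulated WT library above every stimulated iNOS KO library. It rose 4.62-fold in WT (log2 fold change 2.21, SE 0.0875, adjusted p = 6.79e-13) and 2.79-fold in iNOS KO cells (1.48, SE 0.0855, adjusted p = 2.06e-10). Between stimulated cells it was 1.40-fold lower in iNOS KO (-0.48, adjusted p = 0.000121), and the responses differed by -0.73 (SE 0.119, adjusted p = 0.000115). The position listed for Cdkn1a is chromosome 17, 29309950 to 29319701, in a table that names no genome build, so it is not to be set against the promoter coordinates.

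Mdm2, the feedback ligase of p53, followed the same order of groups. It was at 202, 193 and 179.8 CPM in unstimulated WT, 1062, 1021 and 1045 CPM in stimulated WT, 213, 220.5 and 209 CPM in unstimulated iNOS KO, and 824, 626 and 868 CPM in stimulated iNOS KO libraries. Replicate B was the lowest of the stimulated iNOS KO libraries, and no group overlapped its stimulated or unstimulated counterpart. The rise was 5.45-fold in WT (2.45, SE 0.0962, adjusted p = 6.18e-13) and 3.61-fold in iNOS KO cells (1.85, SE 0.0942, adjusted p = 3.63e-11). Stimulated iNOS KO cells held 1.35-fold less than stimulated WT (-0.43, adjusted p = 0.000771), and without replicate B the difference was -0.30. The responses differed by -0.59 (SE 0.129, adjusted p = 0.00158), or -0.46 without that library.

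Ccng1, which encodes cyclin G1, a partner of phosphatase 2A that acts on MDM2, rose in WT cells alone. Its levels were 93.2, 98.5 and 89.0 CPM in unstimulated and 158, 146 and 142 CPM in stimulated WT libraries. In iNOS KO cells they were 118, 103 and 113 CPM before and 105, 75.9 and 104 CPM after stimulation, where the groups overlapped. The log2 fold change was 0.67 in WT (SE 0.103, adjusted p = 2.4e-05) and -0.23 in iNOS KO cells (SE 0.103, adjusted p = 0.0743), and these differed by -0.90 (SE 0.145, adjusted p = 0.000109). Under library totals the change in iNOS KO cells was -0.65 and passed (adjusted p = 8.48e-05), and it also passed with DESeq2's size factors (adjusted p = 0.0479), without a filter (0.0226) and without iNOS KO stimulated replicate A (0.0314) or C (0.0341). Between stimulated cells Ccng1 was 1.56-fold lower in iNOS KO (adjusted p = 5.67e-05).

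Of the death genes, Bbc3, which encodes the BH3-only protein PUMA, fell in WT and rose in iNOS KO cells. In WT libraries it was at 27.5, 26.8 and 30.4 CPM without and 9.97, 11.01 and 9.43 CPM with stimulation. In iNOS KO libraries it was at 21.3, 25.3 and 22.1 CPM without and 32.3, 37.1 and 36.0 CPM with stimulation. Stimulated WT libraries were the lowest of the 12 and stimulated iNOS KO libraries the highest. Bbc3 fell 2.78-fold in WT (-1.48, SE 0.103, adjusted p = 1.34e-09) and rose 1.54-fold in iNOS KO cells (0.62, SE 0.0941, adjusted p = 3.05e-05), a difference of 2.10 between responses (SE 0.14, adjusted p = 4.37e-09). Between stimulated cells it was 3.46-fold higher in iNOS KO (1.79, adjusted p = 2.88e-10). The rise in iNOS KO cells did not pass under library totals (0.20, adjusted p = 0.0649).

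Pmaip1 encodes NOXA, another BH3-only protein, which binds MCL1. It was at 40.03, 50.8 and 43.1 CPM in unstimulated and 263, 226 and 212 CPM in stimulated WT libraries, and at 46.5, 34.3 and 44.2 CPM in unstimulated and 130.3, 78.5 and 118 CPM in stimulated iNOS KO libraries. The stimulated WT libraries lay above the stimulated iNOS KO libraries, of which replicate B was the lowest. The rise was 5.22-fold in WT (2.39, SE 0.162, adjusted p = 8.59e-10) and 2.62-fold in iNOS KO cells (1.39, SE 0.159, adjusted p = 1.26e-06). Stimulated iNOS KO cells held 2.14-fold less (-1.10, SE 0.154, adjusted p = 1.39e-05), or -0.91 on the log2 scale without replicate B, and the responses differed by -0.998 (adjusted p = 0.00181).

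Trp53inp1, a nuclear and autophagy protein that promotes p53 activity, was expressed at a low level. Its CPM values were 3.24, 3.89 and 3.11 in unstimulated WT, 8.80, 7.50 and 7.28 in stimulated WT, 2.65, 2.24 and 2.34 in unstimulated iNOS KO, and 2.70, 1.66 and 3.88 in stimulated iNOS KO libraries. The stimulated WT libraries stood above all the others. It rose 2.30-fold in WT (1.20, SE 0.201, adjusted p = 5.99e-05), and its log2 fold change in iNOS KO cells was 0.21 (95% interval -0.289 to 0.708, adjusted p = 0.485). It was 2.81-fold lower in stimulated iNOS KO than WT cells (-1.49, SE 0.212, adjusted p = 1.59e-05). The responses differed by -0.99 (SE 0.31, adjusted p = 0.0192), a call that was lost without iNOS KO unstimulated replicate A (-0.92, adjusted p = 0.0524) and kept without iNOS KO stimulated replicate B (-0.75, adjusted p = 0.0245).

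Phlda3, whose product competes with AKT for membrane lipids, rose in WT and fell in iNOS KO cells. It was at 6.03, 4.95 and 6.93 CPM in unstimulated and 9.90, 8.98 and 10.8 CPM in stimulated WT libraries, and at 8.14, 8.86 and 7.27 CPM in unstimulated and 4.50, 4.61 and 3.88 CPM in stimulated iNOS KO libraries. Neither genotype's groups overlapped. The change was 1.66-fold upward in WT (0.73, SE 0.14, adjusted p = 0.000246) and 1.87-fold downward in iNOS KO cells (-0.90, SE 0.148, adjusted p = 6.61e-05). The responses differed by -1.63 (SE 0.204, adjusted p = 7.1e-06), and stimulated iNOS KO cells held 2.28-fold less than stimulated WT cells (adjusted p = 3.89e-06).

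The sestrins restrain mTORC1 and take part in antioxidant defence, and they moved in opposite directions. Sesn1 was at 15.9, 19.0 and 18.6 CPM in unstimulated and 3.67, 3.31 and 3.33 CPM in stimulated WT libraries, and at 14.7, 11.7 and 14.4 CPM in unstimulated and 3.34, 3.39 and 3.40 CPM in stimulated iNOS KO libraries. Stimulated libraries of both genotypes thus lay close together, far below the unstimulated ones. Sesn1 fell 5.17-fold in WT (-2.37, SE 0.132, adjusted p = 6.09e-11) and 4.02-fold in iNOS KO cells (-2.01, SE 0.132, adjusted p = 1.18e-09). The difference between stimulated cells was -0.02 (95% interval -0.362 to 0.314, adjusted p = 0.928), and that between responses was 0.36 (95% interval -0.0443 to 0.774, adjusted p = 0.165).

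Sesn2 was at 29.5, 27.0 and 28.5 CPM in unstimulated and 60.7, 63.3 and 63.7 CPM in stimulated WT libraries, and at 22.7, 19.6 and 20.9 CPM in unstimulated and 46.2, 60.6 and 41.8 CPM in stimulated iNOS KO libraries. The lowest stimulated library was above the highest unstimulated one. It rose 2.21-fold in WT (1.14, SE 0.111, adjusted p = 9.9e-08) and 2.35-fold in iNOS KO cells (1.23, SE 0.113, adjusted p = 8.92e-08), and the responses differed by 0.09 (95% interval -0.248 to 0.42, adjusted p = 0.734). Between stimulated cells it was 1.27-fold lower in iNOS KO (-0.34, adjusted p = 0.0162). This call was lost under library totals (-0.24, adjusted p = 0.0851), with only the groups compared (-0.27, adjusted p = 0.111) and without iNOS KO stimulated replicate C (-0.23, adjusted p = 0.0827), while it was larger without replicate B (-0.51).

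Gdf15, a secreted stress cytokine, was close to the limit of detection. It had 2 to 6 counts in unstimulated WT, 2 to 4 in stimulated WT, 2 to 8 in unstimulated iNOS KO and 5 to 8 in stimulated iNOS KO libraries, against a floor of 3 counts, so its fitted fold changes are not read as results. The adjusted p was 0.816 for stimulation of WT, 0.357 for stimulation of iNOS KO and 0.217 between stimulated cells, where the libraries did not overlap (0.135 to 0.277 CPM in WT and 0.321 to 0.577 CPM in iNOS KO). A difference in Gdf15 was not detectable at this depth.

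**Figure D2:**
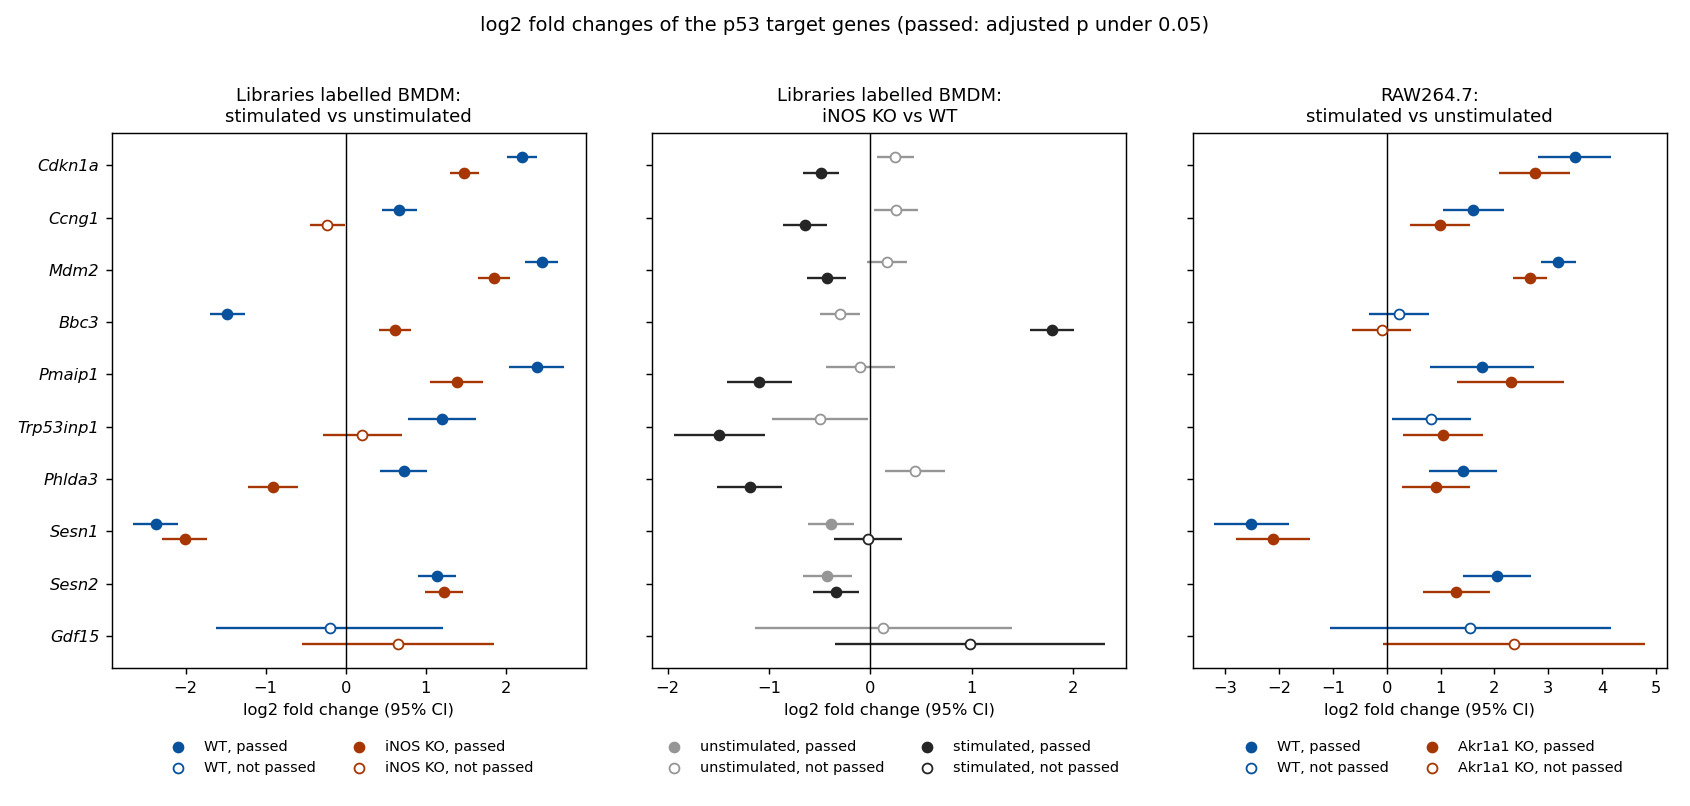
Log2 fold changes of the 10 p53 targets with 95% intervals, in BMDM-labelled cells for stimulation (left) and for iNOS KO against WT (middle), and in RAW264.7 cells for stimulation (right), where filled points passed the test. In the left panel Bbc3 and Phlda3 lie on opposite sides of 0 for stimulation of the genotypes (-1.48 and 0.62 for Bbc3), and Sesn1 lies near -2.37 and -2.01.

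In the fit of all 12 libraries few targets passed between genotypes without stimulation. Compared with WT, iNOS KO cells were higher for 0 and lower for 2 of the 10 genes, beside 1.88% and 4.09% of all genes. The lower ones were Sesn1 (-0.39, SE 0.108, adjusted p = 0.0434) and Sesn2 (-0.43, SE 0.114, adjusted p = 0.0349). In 8 of the 10 the libraries of the genotypes did not overlap (29.1% of all genes), and 7 had an unadjusted p under 0.05 (17.1% of all genes). Each of the calls of Sesn1 and Sesn2 was lost in 8 of the 12 fits that left out 1 library, and both were lost under library totals, where the share of higher among all calls was 42.6% instead of 31.5%. Among the other 8 the log2 differences ran from -0.50 for Trp53inp1 (adjusted p = 0.257) to 0.44 for Phlda3 (adjusted p = 0.0805), with 0.25 for Cdkn1a (adjusted p = 0.116), and under library totals Cdkn1a (0.30, adjusted p = 0.0312) and Phlda3 (0.49, adjusted p = 0.0442) passed. Without iNOS KO stimulated replicate B, which enters through the common estimate of spread, 7 members passed, 4 higher and 3 lower. The SE of Cdkn1a was then 0.0613 instead of 0.0845. With only the unstimulated groups fitted, 7 passed as well. The number of members that passed thus depended on the libraries in the fit. The shares of all genes above do not apply to these fits and their own are not given here, so neither count is read as a result about the members.

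Trp53 itself, the transcript of p53, did not move as most of its targets did. It was at 164, 157 and 167 CPM in unstimulated and 50.1, 56.0 and 57.8 CPM in stimulated WT libraries, and at 155, 165 and 156 CPM in unstimulated and 139.5, 163 and 144 CPM in stimulated iNOS KO libraries. The stimulated WT libraries were alone at the low level. Trp53 fell in WT (-1.57, SE 0.0761, adjusted p = 9.71e-12), its log2 fold change in iNOS KO cells was -0.09 (adjusted p = 0.299), and the responses differed by 1.48 (SE 0.105, adjusted p = 9.04e-09). These are transcript levels, and p53 is regulated largely as a protein, which was not measured in these libraries.

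Of a list of 13 genes made of p53 and its regulators, 9 fell and 1 rose in stimulated WT cells (median -0.81), and 8 fell and 1 rose in iNOS KO cells (median -0.39). The list runs from Chek1, a checkpoint kinase active in replicating cells (-4.27 in WT and -0.64 in iNOS KO), to the acetyltransferase Kat5 (0.40 and 0.38). Atr, the kinase upstream of Chek1, fell alike in both (-2.21 and -2.27), and Mdm4, the partner of Mdm2, fell by 1.04 and 0.90 on the log2 scale. Between stimulated cells 5 of the 13 were higher in iNOS KO and 1, Ep300 (-0.69, adjusted p = 2.8e-06), was lower. For the interaction 4 were positive and 1 negative.

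Proliferation was read from 18 genes (cyclins, mitotic kinases and replication factors). All 18 fell in stimulated WT cells, with a median log2 fold change of -5.24, and 15 of 18 fell in iNOS KO cells, with a median of -0.76. Their summed level was 2900 to 2950 CPM in unstimulated and 139 to 147 CPM in stimulated WT libraries, and 2900 to 3020 CPM in unstimulated and 1640 to 1830 CPM in stimulated iNOS KO libraries. Stimulated WT libraries thus stood far below all the others, and stimulated iNOS KO libraries between them and the unstimulated ones. The paper describes BMDM as not proliferating in either genotype or state, and RAW264.7 cells as halted by the NO that stimulation induces. Which of these cells the BMDM-labelled libraries hold was not tested, so this pattern cannot be assigned to primary macrophages. Ccna2, cyclin A2, fell most in WT (-8.20) and fell by 1.16 in iNOS KO cells, and E2f1 least in WT (-0.95). Between stimulated cells all 18 were higher in iNOS KO (median 4.76), and all 18 interactions were positive (median 4.81). Cdkn1a rose 2.79-fold in the iNOS KO cells. Stimulated iNOS KO libraries held on average 531 ± 55.2 CPM of Cdkn1a (SD, n = 3) against 742 ± 51.8 CPM in stimulated WT (SD, n = 3). Whether Cdkn1a bears on the proliferation genes was not tested.

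The other inhibitors of cyclin-dependent kinases did not rise. Of 6 listed, 3 had enough counts: Cdkn1b (p27) fell in both genotypes (-0.96 and -1.16), Cdkn2c (p18) fell by 2.81 in WT and 1.00 in iNOS KO cells on the log2 scale and was higher in stimulated iNOS KO than WT cells (1.55), and Cdkn2d had a log2 fold change of -0.09 in WT (adjusted p = 0.547) and fell in iNOS KO cells (-0.34). Cdkn2a had 3 counts in 1 of the 12 BMDM-labelled libraries and 0 elsewhere, and Cdkn2b and Cdkn1c had 0 counts in all 20 libraries.

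**Figure D3:**
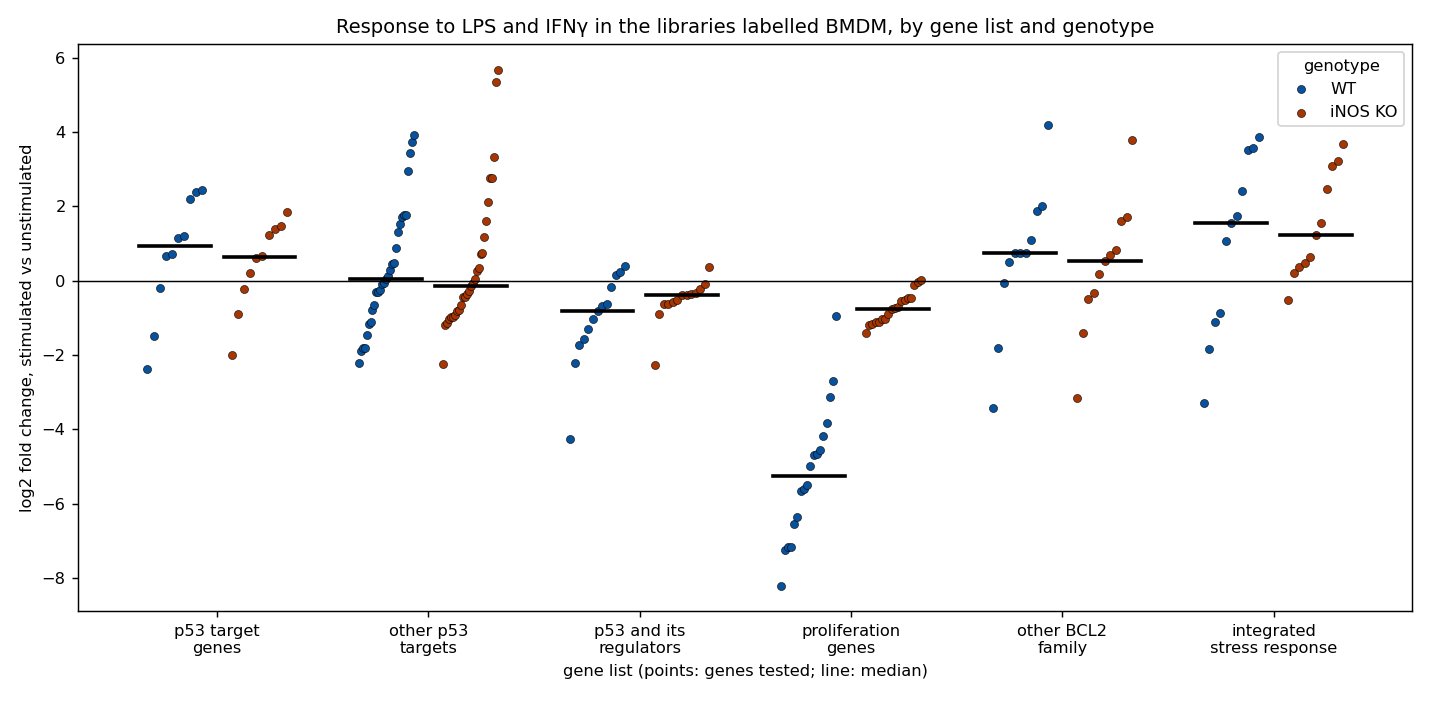
Log2 fold change on stimulation of BMDM-labelled cells for each tested gene of 6 lists around p53, in WT and in iNOS KO cells, with 1 point per gene in rising order and a line at each list's median. The p53 targets spread on both sides of 0 in both genotypes, while the proliferation genes have a median of -5.24 in WT and -0.76 in iNOS KO cells.

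A further list of 30 p53 targets, of which 29 were tested, showed no common direction. In stimulated WT cells 12 rose and 10 fell (median 0.04), in iNOS KO cells 12 rose and 13 fell (median -0.14), and between stimulated cells 12 were higher and 11 lower (median 0.04). Fas, the death receptor, rose more in iNOS KO than in WT cells (5.36 against 3.91, interaction 1.44, adjusted p = 0.000145), and so did the cytokine Lif (5.68 against 3.44, interaction 2.24, adjusted p = 1.87e-07). Pidd1, which activates caspase-2, fell in both (-2.22 and -0.80). Eda2r was lower in stimulated iNOS KO than WT cells (-1.53), and the lowest interaction was that of Polk (-1.45), a translesion polymerase. Of the 29 interactions, 13 were positive and 6 negative. Bax had log2 fold changes of -0.09 and 0.05 that did not pass.

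Of 11 other BCL2 family genes, 8 rose and 2 fell in stimulated WT cells (median 0.75), and 6 rose and 4 fell in iNOS KO cells (median 0.52). Their log2 fold changes ran from Bok (-3.43) to Bik (4.19) in WT and from Bmf (-3.14) to Bik (3.8) in iNOS KO cells. Bcl2l11 (BIM) rose in both (2.02 and 1.71), as did the survival genes Bcl2l1 (1.86 and 1.62) and Mcl1 (0.73 and 0.52), the partner of NOXA. Between stimulated cells 2 were higher in iNOS KO, with Bok at 0 to 0.277 CPM in WT and 1.86 to 3.61 CPM in iNOS KO libraries, and 7 were lower, with Bmf at 0.416 to 0.624 CPM in WT and 0.179 to 0.216 CPM in iNOS KO libraries.

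Genes of the integrated stress response, which share ATF4 as an input with Sesn2, were listed as well. Of 11 tested, 7 rose and 4 fell in stimulated WT cells (median 1.54), and 10 rose and 1 fell in iNOS KO cells (median 1.22). Ddit3 rose most in WT (3.86, and 3.10 in iNOS KO), Atf4 rose by 1.08 and 0.36, Trib3 by 1.54 and 1.55, and Phgdh fell by 3.29 and 0.51 on the log2 scale. At rest, iNOS KO cells were lower for 10 of the 11, as for Sesn2, with Trib3 at -0.93. The name Ddit3 is carried by 2 gene models in the table, and the longer was used.

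In RAW264.7 cells stimulation raised 6 of the 10 p53 targets and lowered 1 in WT, beside 18.5% and 19.2% of all genes tested there. In Akr1a1 KO cells it raised 7 and lowered 1, beside 19.8% and 19.4%. The members' median was 1.58 in WT and 1.17 in Akr1a1 KO cells, against -0.03 and 0.02 over all genes. With library totals in place of TMM the share of higher among all calls in WT was 35.8% instead of 49.1%, and the median of all genes shifted by -0.23. Cdkn1a, Mdm2, Ccng1, Pmaip1, Sesn2 and Phlda3 rose in both genotypes, Trp53inp1 passed in Akr1a1 KO cells and not in WT (the responses differed by 0.22, adjusted p = 1), and Sesn1 fell in both. With both libraries of contradictory title left out, 1 unstimulated library of each genotype remained. The shares of all genes above do not apply to that fit, so its calls are not counted here. The members' log2 fold changes on stimulation kept their direction in both genotypes. In Akr1a1 KO cells the calls of Trp53inp1 (1.03) and Phlda3 (0.997) were not kept.

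Cdkn1a was at 78.1 and 137.5 CPM in unstimulated and 1072 and 1365 CPM in stimulated WT RAW264.7 libraries, and at 158 and 153 CPM in unstimulated and 1197 and 896 CPM in stimulated Akr1a1 KO libraries. It rose 11.3-fold in WT (3.50, SE 0.295, adjusted p = 5.49e-05) and 6.73-fold in Akr1a1 KO cells (2.75, SE 0.286, adjusted p = 0.000148). Mdm2 was at 72.6 and 81.4 CPM in unstimulated and 749 and 657 CPM in stimulated WT libraries, and at 107 and 102 CPM in unstimulated and 680.0 and 639 CPM in stimulated Akr1a1 KO libraries. Both genes stood far above their unstimulated level in all 4 stimulated libraries. Mdm2 rose 9.12-fold in WT (adjusted p = 2.91e-06) and 6.32-fold in Akr1a1 KO cells (adjusted p = 5.69e-06).

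Ccng1 was at 107 and 172 CPM in unstimulated and 459 and 390.1 CPM in stimulated WT libraries, a 3.04-fold rise (adjusted p = 0.0012), and at 173 and 165 CPM before and 392 and 280.2 CPM after stimulation in Akr1a1 KO cells, a 1.99-fold rise (adjusted p = 0.0119). Pmaip1 went from 22.7 and 29.5 CPM to 81.4 and 96.9 CPM in WT (3.40-fold, adjusted p = 0.0111) and from 9.03 and 21.4 CPM to 50.6 and 103 CPM in Akr1a1 KO cells (4.95-fold, adjusted p = 0.00325). Without WT unstimulated replicate A the rise of Pmaip1 in WT did not pass (1.60, adjusted p = 0.0679). Neither gene's stimulated libraries overlapped the unstimulated ones of the same genotype.

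Bbc3 showed no difference that passed in RAW264.7 cells. It was at 27.4 and 25.2 CPM in unstimulated and 38.1 and 23.2 CPM in stimulated WT libraries, and at 34.6 and 30.2 CPM in unstimulated and 34.2 and 26.2 CPM in stimulated Akr1a1 KO libraries, with overlap in both genotypes. The log2 fold change was 0.22 in WT (adjusted p = 0.516) and -0.10 in Akr1a1 KO cells (adjusted p = 0.787). In the BMDM-labelled WT cells the same gene fell by 1.48. The experiments were not tested against each other.

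Trp53inp1 was at 9.15 and 17.8 CPM in unstimulated and 23.7 and 24.8 CPM in stimulated WT libraries, and at 18.0 and 17.5 CPM before and 45.4 and 28.1 CPM after stimulation in Akr1a1 KO libraries. The groups did not overlap, and the log2 fold change was 0.83 in WT (adjusted p = 0.0761) and 1.05 in Akr1a1 KO cells (adjusted p = 0.0316). Phlda3 went from 23.3 and 37.4 CPM to 78.2 and 85.7 CPM in WT (2.68-fold, adjusted p = 0.00392) and from 16.1 and 18.0 CPM to 40.1 and 24.4 CPM in Akr1a1 KO cells (1.88-fold, adjusted p = 0.0307). Under library totals neither passed in Akr1a1 KO cells (adjusted p = 0.0526 for Trp53inp1 and 0.0587 for Phlda3), and these calls, like that of Ccng1, also rested on single libraries. Without Akr1a1 KO stimulated replicate A none of the 3 passed (0.65 for Trp53inp1, 0.51 for Phlda3 and 0.72 for Ccng1), nor without Akr1a1 KO unstimulated replicate A (adjusted p = 0.114, 0.136 and 0.0571) or B (adjusted p = 0.135, 0.098 and 0.0746). In WT, Trp53inp1 passed with DESeq2 (0.91, adjusted p = 0.0194), with its size factors (adjusted p = 0.0484), without a filter (0.80, adjusted p = 0.00211) and with both libraries of contradictory title left out (1.40, adjusted p = 0.0377). It also passed there without WT unstimulated replicate B (1.40, adjusted p = 0.0159) and without Akr1a1 KO stimulated replicate A (adjusted p = 0.046) or B (adjusted p = 0.0449).

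The sestrins kept their opposite directions in the cell line. Sesn1 fell from 49.4 and 49.7 CPM to 5.58 and 11.6 CPM in WT (5.72-fold, adjusted p = 0.000348) and from 39.2 and 43.7 CPM to 10.6 and 8.48 CPM in Akr1a1 KO cells (4.35-fold, adjusted p = 0.00075). Sesn2 rose from 16.3 and 25.8 CPM to 67.2 and 109 CPM in WT (4.15-fold, adjusted p = 0.000613) and from 38.1 and 42.0 CPM to 105 and 90.8 CPM in Akr1a1 KO cells (2.45-fold, adjusted p = 0.00551). Gdf15 had 0 to 6 counts in unstimulated and 4 to 16 in stimulated libraries, with adjusted p of 0.321 in WT and 0.113 in Akr1a1 KO cells.

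**Figure D4:**
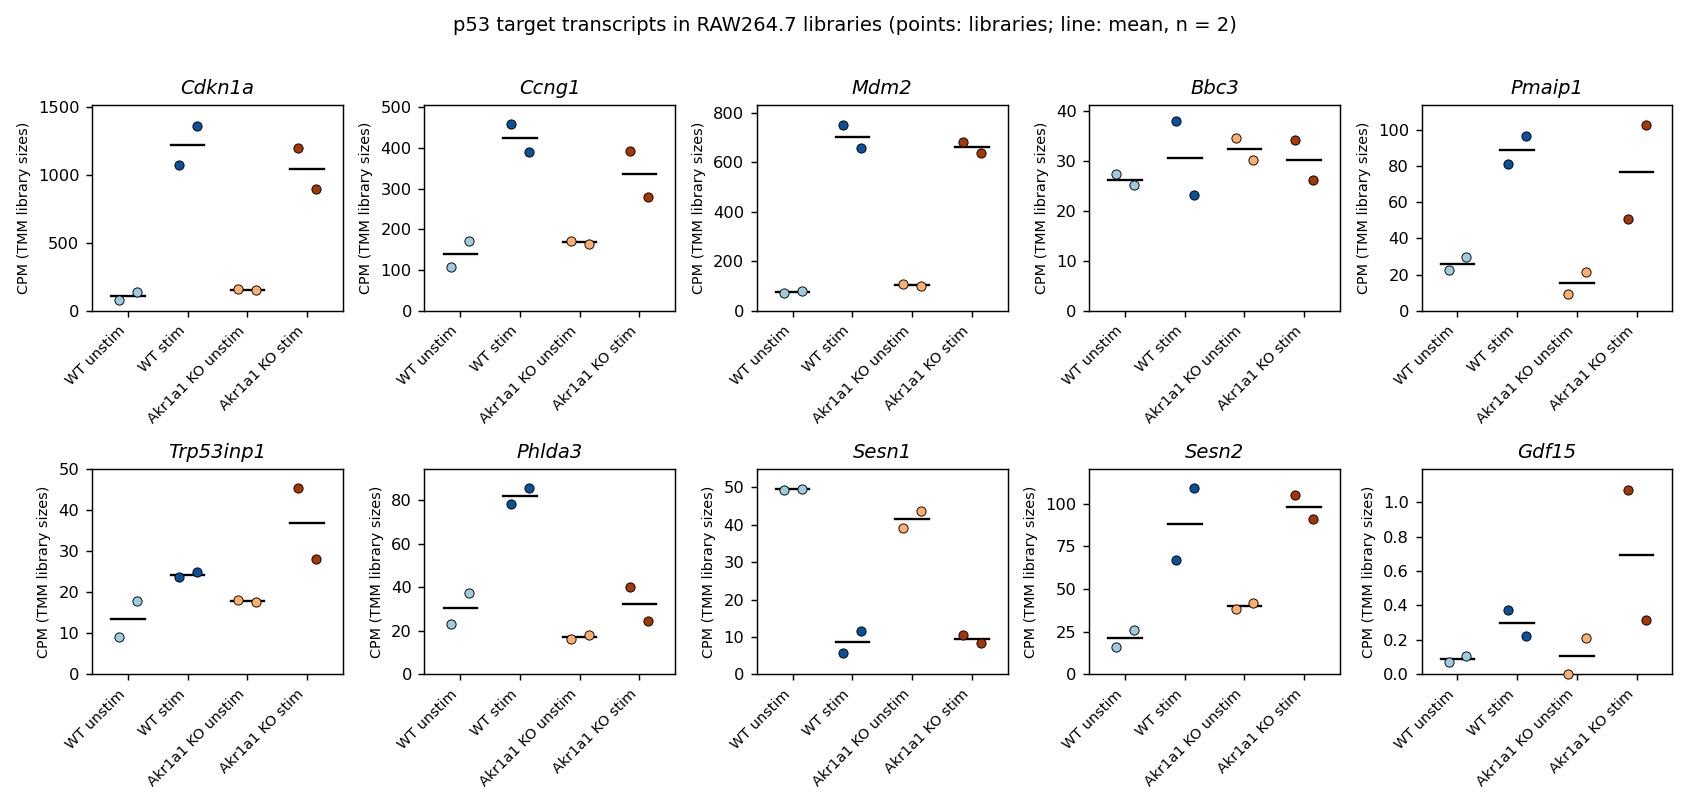
Level of each of the 10 p53 targets in the 8 RAW264.7 libraries, in CPM on linear axes from 0, with 1 point per library and a line at each group's mean (n = 2). All 4 stimulated libraries stand above the unstimulated ones for Cdkn1a and Mdm2 and below them for Sesn1, and those of Bbc3 overlap between the states of each genotype.

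Akr1a1 KO was compared with WT in both states. Of the 10 genes 0 were higher and 0 lower in stimulated cells, beside 0.0869% and 0.199% of all genes, while 1 had an unadjusted p under 0.05 (11.1% of all genes), DESeq2 called 1 (2.45% of all genes) and in 2 the libraries did not overlap (38.4% of all genes). The gene called by DESeq2 was Phlda3, which was lower in both Akr1a1 KO libraries than in both WT libraries (-1.35, 95% interval -1.98 to -0.715, adjusted p = 0.135 by edgeR and 0.000494 by DESeq2). Without stimulation 0 were higher and 0 lower, beside 0.230% and 0.353% of all genes, with 3 at an unadjusted p under 0.05 (8.04% of all genes), 2 called by DESeq2 (2.07% of all genes) and 7 whose libraries did not overlap (41.7% of all genes). The 3 with an unadjusted p under 0.05 were Mdm2 (0.44, adjusted p = 0.347), Sesn2 (0.92, adjusted p = 0.332) and Phlda3 (-0.84, adjusted p = 0.42), and DESeq2 called Mdm2 (adjusted p = 0.0423) and Sesn2 (adjusted p = 0.0398). For the interaction 0 passed in either direction, beside 0.00511% and 0.0153% of all genes, with 1, Mdm2 (-0.53, adjusted p = 0.879), at an unadjusted p under 0.05 (5.51% of all genes) and 0 called by DESeq2 (0.460% of all genes). For Cdkn1a the difference between stimulated cells was -0.22 (95% interval -0.834 to 0.395, adjusted p = 0.809). With 2 libraries a group and a KO whose own transcript did not pass, these comparisons do not show that the genotypes are alike.

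The lists around p53 were read in RAW264.7 cells too. Trp53 was at 188 and 229.6 CPM in unstimulated and 136 and 131 CPM in stimulated WT libraries, and it fell in WT (-0.65, adjusted p = 0.00797) and in Akr1a1 KO cells (-0.54, adjusted p = 0.0176). Of the 13 genes of p53 and its regulators, 9 fell and 1 rose in WT, and 7 fell and 1 rose in Akr1a1 KO cells. All 18 proliferation genes fell in both (medians -5.46 and -5.16), with summed levels of 4280 to 5060 CPM in unstimulated and 91.4 to 123 CPM in stimulated libraries. Of the 29 further p53 targets tested, 11 rose and 6 fell in WT and 9 rose and 8 fell in Akr1a1 KO cells, and of the 11 stress response genes 8 rose and 2 fell in WT and 7 rose and 3 fell in Akr1a1 KO cells. Of 10 BCL2 family genes, 8 rose and 1 fell in WT and 7 rose and 0 fell in Akr1a1 KO cells.

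Per length, as RPKM from the TMM-scaled library size and the gene length in the table, the p53 targets spanned a wide range. In stimulated WT BMDM-labelled cells the highest were Cdkn1a at 209 ± 14.6 and Mdm2 at 205 ± 4.06 RPKM (SD, n = 3), which did not differ beyond their spread, followed by Pmaip1 at 85.4 ± 9.64, Ccng1 at 42.3 ± 2.40 and Sesn2 at 18.0 ± 0.467 RPKM. Phlda3 at 6.34, Bbc3 at 4.77, Trp53inp1 at 1.21, Sesn1 at 0.863 and Gdf15 at 0.112 RPKM came last. Sesn1 and Bbc3, the members that fell, stood higher in the unstimulated order. In unstimulated WT cells the order was Cdkn1a at 45.2 ± 2.90, Mdm2 at 37.7 ± 2.18, Ccng1 at 26.6 ± 1.35, Pmaip1 at 16.3 ± 2.02, Bbc3 at 13.3 ± 0.884 and Sesn2 at 8.15 ± 0.369 RPKM (SD, n = 3). In stimulated iNOS KO cells Mdm2 at 152 ± 25.4 and Cdkn1a at 149 ± 15.5 RPKM lay within their spread, Bbc3 at 16.6 ± 1.18 and Sesn2 at 14.3 ± 2.84 RPKM did too, and Pmaip1 was at 39.9 ± 9.90 RPKM. In stimulated RAW264.7 cells Cdkn1a was the highest of the 10 at 343 ± 58.2 RPKM in WT and 294.5 ± 60.0 RPKM in Akr1a1 KO cells (SD, n = 2).

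The genes most like Cdkn1a and Mdm2 across the 12 BMDM-labelled libraries were sought among 8571 protein-coding genes, by Pearson's r of log2 CPM. For Cdkn1a they were Cd74, Dusp4 and Kcmf1 (r = 0.997 each), and for Mdm2 they were Spryd7 (r = 0.998), Ccl2 and Nabp1 (r = 0.997 each). For Gdf15 the highest r was 0.747, with Ceacam1, followed by Ormdl2 (0.715) and B3galnt1 (0.683). Gdf15 had only 2 to 8 counts in these libraries, so its r values are not read as likeness. The 12 points fall into 4 groups and share the effect of stimulation, so these values describe the order of groups rather than covariation within them.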

How the data were processed

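RNA was measured in 20 poly A libraries. According to the methods, the authors removed low-quality and adaptor reads, used STAR to align what remained to mm10, and counted reads per gene, and the deposited tables hold these raw counts as whole numbers, without normalization. The strand setting was not given in the sources used here, and the tables name no genome build. Groups were taken from the labels. Genes that summed to 10 counts or more were tested in edgeR 4.0.16 (limma 3.58.1, R 4.3.3) with TMM scaling, 1 mean per group in each experiment, 2-sided quasi-likelihood F tests and Benjamini-Hochberg adjustment over all genes tested. A SE is the absolute log2 fold change over the square root of F. Logarithms for likeness used a prior count of 2, on genes with a mean log2 CPM over 3. Figures were drawn with matplotlib. The tests were tried on simulated data.

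The members, the lists and the tests were chosen with earlier results of these data known. The text names all 10 members, the knocked-out genes, Trp53 and the 3 genes most like Cdkn1a, Mdm2 and Gdf15. From the lists it names genes with the largest or smallest change in a comparison or with a role, but not every such gene. Not named above were Mki67, the lowest proliferation gene for stimulation of iNOS KO cells (-1.42), and Atf3, the highest stress response gene there (3.67). Mcl1, Mdm4, Bax and Atr were named for their roles. Alternatives were DESeq2 1.42.0, its size factors, library totals, filterByExpr or no filter, protein-coding genes alone, only the groups compared, a fold change limit, the replicate letter as a block, both libraries of contradictory title left out, and each library left out in turn. Replicates A, B and C of stimulated and unstimulated iNOS KO libraries deviated together from their group means (correlations 0.404, 0.497 and 0.121), so the letter was read as a pairing there, from the data and not from a label. The SEs and adjusted p-values given for the main fit do not use this pairing, which entered only through the replicate block. Depth limits precision for Gdf15 (0 to 16 counts) and, less so, Trp53inp1.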

Additional observations from a re-analysis of the deposited data

Results flagged for a closer look

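In 7 p53 targets the response to stimulation differed between WT and iNOS KO BMDM-labelled cells by the interaction term (quasi-likelihood F test of edgeR, p adjusted over all genes by Benjamini and Hochberg's method). The response was more positive in iNOS KO cells for 1 and more negative for 6, beside 20.0% and 15.4% of all genes. With an absolute log2 fold change over 1 also required, Bbc3 and Phlda3 alone remained. The log2 difference (iNOS KO minus WT) was -0.73 for Cdkn1a (SE 0.119, adjusted p = 0.000115), which rose in all 3 stimulated libraries of both genotypes. It was -0.59 for Mdm2 (adjusted p = 0.00158), -0.90 for Ccng1 (adjusted p = 0.000109) and -0.998 for Pmaip1 (adjusted p = 0.00181). For Trp53inp1 it was -0.99 (adjusted p = 0.0192), and it did not pass without iNOS KO unstimulated replicate A (-0.92, adjusted p = 0.0524). For Phlda3 it was -1.63 (adjusted p = 7.1e-06) and for Bbc3 2.10 (adjusted p = 4.37e-09), and both passed in opposite directions in the genotypes. Ccng1 had log2 fold changes of 0.67 in WT and of -0.23 in iNOS KO cells, where it did not pass. The cause of these differences was not tested.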

How the results depend on the processing

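In the BMDM-labelled cells 958 of 1035 log2 fold changes of the members kept their direction and side of the threshold, 21 newly passed, 44 no longer passed and 12 changed sign, and in RAW264.7 cells these were 833, 14, 16 and 22 of 885. These refits overlap and are not independent. Many left out a library outside the groups compared, and the fold change limit reused the main fit, so its direction could not change. The tally is therefore no measure of robustness. None of the values that changed sign passed in either fit. Under library totals they were Trp53inp1 for stimulation of iNOS KO cells (-0.21), Sesn1 between stimulated BMDM-labelled cells (0.073, and 0.047 with only the groups compared), and in RAW264.7 cells Bbc3 for stimulation of WT (-0.017) and between stimulated cells (0.048). With both libraries of contradictory title left out they were the RAW264.7 interaction of Trp53inp1 (-0.38) and the fitted difference of Gdf15 between unstimulated RAW264.7 cells (-3.26), which rests on few counts. With each library left out in turn, 6 values of the BMDM-labelled cells crossed 0: Trp53inp1 for stimulation of iNOS KO (-0.13 to 0.45), Gdf15 for stimulation of WT (-0.59 to 0.11), Sesn1 between stimulated cells (-0.051 to 0.0255), Pmaip1 (-0.18 to 0.023) and Gdf15 (-0.27 to 0.50) between unstimulated cells, and the interaction of Sesn2 (-0.083 to 0.20). In RAW264.7 cells these were Bbc3 for stimulation of WT (-0.12 to 0.59) and Akr1a1 KO cells (-0.31 to 0.10), Bbc3 (-0.35 to 0.36), Pmaip1 (-0.83 to 0.17), Sesn1 (-0.31 to 0.76) and Sesn2 (-0.18 to 0.53) between stimulated cells, Ccng1 (-0.027 to 0.65), Trp53inp1 (-0.0054 to 0.95) and Gdf15 (-3.98 to 1.07) between unstimulated cells, and the interactions of Bbc3 (-0.68 to 0.022), Pmaip1 (-0.095 to 1.32), Trp53inp1 (-0.36 to 0.60), Sesn1 (-0.086 to 0.98) and Gdf15 (-0.37 to 5.20). The number of members that passed for iNOS KO against WT in stimulated cells, 8, was 4 with the fold change limit, and the 7 interactions were 2. For iNOS KO against WT without stimulation the number, 2, was 1 with DESeq2, 1 with its size factors, 4 without a filter, 1 with the replicate block, 7 with only the groups compared, 0 with the fold change limit and 0 to 7 with each library left out. Such refits may move the calls over all genes too, and those shares are not given here. For stimulation of Akr1a1 KO cells it was 5 to 8 with each library left out. For Akr1a1 KO against WT it was 1 in stimulated cells with DESeq2 and 1 without a filter, and 2 and 3 in unstimulated cells. The cause of these shifts was not tested, apart from the fold change limit and the removal of libraries, which by construction remove calls or samples. The replicate block changed 1 member's call, that of Sesn1 between unstimulated cells (-0.39, adjusted p = 0.0652), and no other. Outside the pairing of stimulated and unstimulated iNOS KO libraries, the letter was taken as a name only. Between stimulated and unstimulated WT RAW264.7 libraries the same-letter correlation was 0.438. Among the other pairs of BMDM-labelled groups such correlations ran from -0.517 to 0.46 (0.46, 0.387 and -0.146 between stimulated iNOS KO and WT libraries). There 0 to 4 of the 6 libraries of a pair of groups correlated best with their own letter, against 5 of 6 for the iNOS KO groups. Under library totals the RAW264.7 interaction had 2 calls over all genes, against 4 under TMM.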
